A study of Homo sapiens with 8 samples.

Results

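The 10 genes described here encode the machinery that moves a cell through the first gap phase of its cycle: the D-type cyclins CCND1, CCND2 and CCND3, the kinases CDK4 and CDK6, the INK4 inhibitors CDKN2B, CDKN2C and CDKN2D, the KIP inhibitor CDKN1B and the pocket protein RB1. They were chosen by symbol for their role, at a time when earlier results of these data were known, and all 10 were found among the 14870 rows of the authors' deposited table. The cells were LX-2, an established human hepatic stellate cell line, grown in medium with low serum. One group of 4 samples received recombinant human TGF-β1 and 5 µM ML290, a small molecule that activates RXFP1, the receptor of the hormone relaxin, and the other group of 4 received TGF-β1 and the solvent DMSO, both for 72 h. The comparison asks which of these genes ML290 changed in cells that all received TGF-β1, and no group without TGF-β1 is used here. The series text calls the cells transformed, and LX-2 is known to descend from stellate cells transformed with the simian virus large T antigen, a protein that binds RB1 and its relatives as well as p53.

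Cyclin D proteins are made when growth signals arrive, bind CDK4 or CDK6, and lead these kinases to phosphorylate RB1, which then releases the E2F transcription factors that switch on the genes of DNA replication. INK4 proteins bind CDK4 and CDK6 and keep cyclin D away, while p27, the product of CDKN1B, blocks CDK2 complexes and also helps cyclin D and CDK4 assemble. TGF-β is known to halt epithelial cells at this gate by raising CDKN2B and lowering MYC, whereas activated stellate cells divide in injured liver and are the main source of scar matrix.

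Every value below is a group mean over 4 samples, on the authors' scale of normalised read counts, with the p-value of the authors' own test after step-up adjustment. Values of single samples were not used, hence no SD or range stands beside the means, and whether samples of the groups overlapped is not known. Low values were spaced by what 1 read is worth, and this spacing gives a depth of about 19100000 reads for an ML290 library and 21000000 for a DMSO library if the scale is per 1000000 reads. The stellate identity of the cells was checked on 13 markers chosen for this purpose, of which 11 were listed, with COL1A1 at 1809.6 with ML290 and 4231.5 with DMSO in the authors' deposited table, and with DES and LRAT not listed. Of these 11 markers, 10 were lower and 1, VIM, was higher per the authors' deposited table, at 2685.4 with ML290 and 2284.5 with DMSO. The summed level of the 11 was 5361.6 with ML290 and 8825.6 with DMSO, most of it COL1A1 and VIM. RXFP1, the receptor that ML290 activates, was close to the floor, as was DCN. RXFP1 had 0.534 with ML290 and 1.16 with DMSO per the authors' deposited table (adjusted p = 0.0138). This is about 40.9 and 97.7 reads summed over 4 libraries. None of 7 hepatocyte markers was listed, nor were the leukocyte antigen PTPRC, the endothelial CDH5 and the biliary EPCAM. The summed level of the 4 listed endothelial markers was 2.28 with ML290 and 3.04 with DMSO in the authors' deposited table. The 2 listed biliary markers summed to 43.9 with ML290 and 38.6 with DMSO, nearly all of it SOX9, while KRT7 was 1.80-fold lower (adjusted p = 0.000707) by the authors' deposited table. The 3 listed macrophage markers summed to 75.8 with ML290 and 41.1 with DMSO, nearly all of it the lysosomal protein CD68, per the authors' deposited table. The other macrophage markers were on the lower side in the authors' deposited table, with CD14 at 3.59 with ML290 and 5.38 with DMSO (adjusted p = 0.0169) and CSF1R at 0.454 and 0.596 (adjusted p = 0.381). The part of other cells in the results was not tested.

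Letters of known motifs stand in front of 2 of the members that changed, CDK4 and CDKN2C. They are shown here because MYC and the E2F factors, whose own levels are given further on, are known to bind such letters. MYC and its relatives bind the E-box CACGTG, and E2F letters were searched as TTCCCGC. RefSeq promoters of build GRCh38.p14 were matched for 8 of the 10 members by symbol, not for CCND1 and CCND2, and the 250 bases before each of their 13 start sites were searched on both strands. Capitals mark the motif, and each stretch runs 5′ to 3′ on the gene's strand.
CDK4, chr12:57752499-57752528, minus strand, 218 to 189 bases before the start: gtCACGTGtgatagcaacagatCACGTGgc
CDK4, chr12:57752394-57752423, minus strand, 113 to 84 bases before the start: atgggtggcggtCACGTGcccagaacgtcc
CDKN2C second start, chr1:50968564-50968593, plus strand, 142 to 113 bases before the start: gagagcgggagGCGGGAAtgagggcgcggg
CDKN2C second start, chr1:50968663-50968692, plus strand, 43 to 14 bases before the start: cgcccggccTTCCCGCtcccgcggcgctgc

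CDK4 thus had 3 E-boxes in its window. At least 1 E-box stood in 6.34% of the 35116 RefSeq windows of the same length, and the share with several was not counted. CDK6, its close relative, had none in either of its 2 windows. CDKN2C had an E-box before its first start and before its last, and 2 matches to the E2F letters before the second. At least 1 match to the E2F letters stood in 5.52% of all windows. No other window of a matched member held the E2F letters. Of 5 further motifs searched, the cAMP half-site TGACGT stood before the first and last CDKN2C starts and before 1 of 2 CDK6 starts, and the AP-1 letters TGANTCA before the RB1 start, in 7.1% and 6.57% of all windows. The GC box GGGCGG stood before at least 1 start of each matched member except RB1, called or not, and in 42.6% of all windows. The only RB1 start in the set, at 48476450, lies inside the gene, whose first base is 48303726 in GENCODE 29. The bases before that first base were not searched for any motif. CCAAT stood before starts of CCND3, CDKN1B, CDKN2C and CDKN2D and in 32% of all windows, and TTTGAA before none of the 13, against 13.3%. A match is letters only and no record of binding, and whether MYC or E2F factors act on these genes was not tested. The CDK4 window is 65.6% G or C and the second CDKN2C window 77.2%. The shares of all windows are not matched for this. In annotated exons of GENCODE 29 lie 211 of the 250 bases before the CDK4 start and all 250 before the second CDKN2C start.

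With ML290, 3 of the 10 genes changed. The cyclin CCND1 and the kinase CDK4 were higher, the inhibitor CDKN2C was lower, and the other 7 did not pass the threshold of an adjusted p of 0.05. That is 30.0% of the members against 35.1% of all rows called in the authors' deposited table, so the share of members is near the background. By direction, 2 of 10 were higher, against 19.5% of all rows, and 1 of 10 was lower, against 15.6%. The median log2 ratio of ML290 over DMSO was -0.04 for the 10 members and 0.02 for all rows of the authors' deposited table. In a culture of dividing cells, a change in the share of cells at each stage of the cycle and a change in RNA per cell cannot be told apart from these values.

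**Figure D1:**
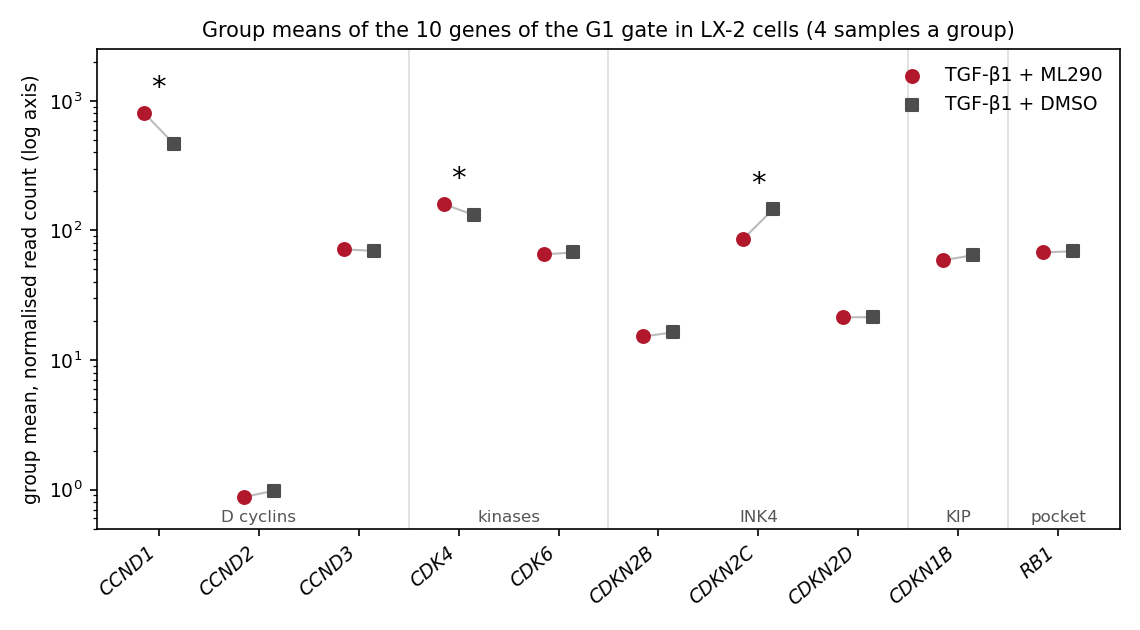
Group means of the 10 genes, in normalised read counts on a log axis, for TGF-β1 with ML290 (red circles) and TGF-β1 with DMSO (grey squares), 1 mean over 4 samples each, with a star where the authors' adjusted p was under 0.05. CCND1 stands at 810.3 with ML290 against 467.7 with DMSO and CDKN2C at 86.2 against 146.3, while the pairs without a star lie almost level.

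Among the D cyclins, CCND1 carried the change. This cyclin is the one that most mesenchymal cells raise in response to growth factors. CCND1 had a mean of 810.3 with ML290 and 467.7 with DMSO in the authors' deposited table, a 1.73-fold increase (log2 ratio 0.79, adjusted p = 1.65e-05). It ranked 677 of 14870 rows from the most raised. CCND1 lies on chromosome 11 from 69641087 to 69654474 of GRCh38 in GENCODE 29, where 497 exonic bases are shared with ORAOV1 on the opposite strand. The use of strand in the counting is not given, and ORAOV1 had 26.6 with ML290 and 20.8 with DMSO in the authors' deposited table (adjusted p = 0.00175), both far below CCND1.

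The other D cyclins did not pass. CCND3, the cyclin D that is most widely expressed across tissues, had 71.4 with ML290 and 69.5 with DMSO in the authors' deposited table (ratio 1.03, adjusted p = 0.776). CCND2 was close to the floor, with 0.876 in ML290 cells and 0.976 in DMSO cells in the authors' deposited table (adjusted p = 0.778). This corresponds to about 67.1 reads summed over the 4 ML290 libraries and 82.0 reads over the 4 DMSO libraries. At that depth a moderate difference in CCND2 could have been missed. The smallest fold that passed the threshold among the 2088 rows with a mean level under 1 was 1.69 in the authors' deposited table. Among the rows with a level of 1 to 10 it was 1.19. These are observed folds and no limit of detection for CCND2, whose spread is not known. CCND3 lies on chromosome 6 from 41934933 to 42050357 and CCND2 on chromosome 12 from 4273772 to 4305350. CCND2 shares 989 exonic bases with AC008012.1 on the same strand and 126 with CCND2-AS1 on the opposite strand, neither of them listed. How reads in these shared bases were counted is not given, so their part in the low CCND2 level is not known.

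Of the 2 kinases, CDK4 rose and CDK6 did not pass. Both bind the same cyclins and phosphorylate RB1. CDK4 had 159.6 with ML290 and 131.7 with DMSO per the authors' deposited table, 1.21-fold higher (log2 ratio 0.28, adjusted p = 0.00315). CDK6 had 65.2 with ML290 and 67.6 with DMSO in the authors' deposited table, a ratio of 0.964 (adjusted p = 0.562). The CDK4 call was lost under a Bonferroni adjustment and with a minimum fold of 1.5. CDK4 lies on chromosome 12 from 57747727 to 57756013, where it shares 1369 exonic bases with TSPAN31 on the opposite strand. The authors' deposited table puts TSPAN31 at 6.26 with ML290 and 8.39 with DMSO (adjusted p = 0.00646), the other direction from CDK4 and a small part of its level. CDK6 lies on chromosome 7 from 92604921 to 92836594.

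CDKN2C, which encodes the INK4 protein p18, was the member with the smallest adjusted p. It had 86.2 with ML290 and 146.3 with DMSO per the authors' deposited table, 1.70-fold lower (log2 ratio -0.76, adjusted p = 3.06e-06), and ranked 651 of 14870 from the most lowered. Its relatives did not move with it past the threshold. CDKN2B, the INK4 gene that TGF-β is known to induce in epithelial cells, had 15.2 with ML290 and 16.3 with DMSO in the authors' deposited table (adjusted p = 0.383). CDKN2D stood at 21.3 in ML290 cells and 21.4 in DMSO cells (adjusted p = 0.987), the ratio closest to 1 of all members in the authors' deposited table. The remaining INK4 gene, CDKN2A, is not among the 10 and had 163.7 with ML290 and 175.3 with DMSO in the authors' deposited table (adjusted p = 0.367). Its value joins 2 products, p16 and ARF, which gene-level values do not separate. CDKN2C lies on chromosome 1 from 50960745 to 50974633, CDKN2B on chromosome 9 from 22002903 to 22009363 and CDKN2D on chromosome 19 from 10566462 to 10569059. The antisense gene CDKN2B-AS1 runs across CDKN2B without sharing exonic bases and had 0.991 with ML290 and 1.19 with DMSO in the authors' deposited table (adjusted p = 0.394).

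CDKN1B and RB1 did not pass. CDKN1B had 58.9 with ML290 and 64.4 with DMSO in the authors' deposited table, a ratio of 0.915 (adjusted p = 0.192), the largest difference among the members with a mean level of 10 to 100. The other CIP/KIP genes, which are not among the 10, were both higher. CDKN1A, the p53 target that encodes p21, had 133.6 with ML290 and 65 with DMSO per the authors' deposited table, a rise of 2.06-fold (adjusted p = 2.90e-06). CDKN1C, which encodes p57, was higher as well by the authors' deposited table, with a rise of 2.36-fold (adjusted p = 0.00448), at means of 1.12 with ML290 and 0.476 with DMSO, or about 85.8 and 40 reads summed over 4 libraries. RB1 had 67.7 with ML290 and 69.0 with DMSO in the authors' deposited table (ratio 0.981, adjusted p = 0.786), and none of the 3 pocket proteins was called there, nor did any have an unadjusted p under 0.05. RBL1 had 68.9 with ML290 and 61.1 with DMSO in the authors' deposited table (adjusted p = 0.137), and RBL2 had 44.5 and 40.7 (adjusted p = 0.259). CDKN1B lies on chromosome 12 from 12715058 to 12722371 and RB1 on chromosome 13 from 48303726 to 48599436.

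**Figure D2:**
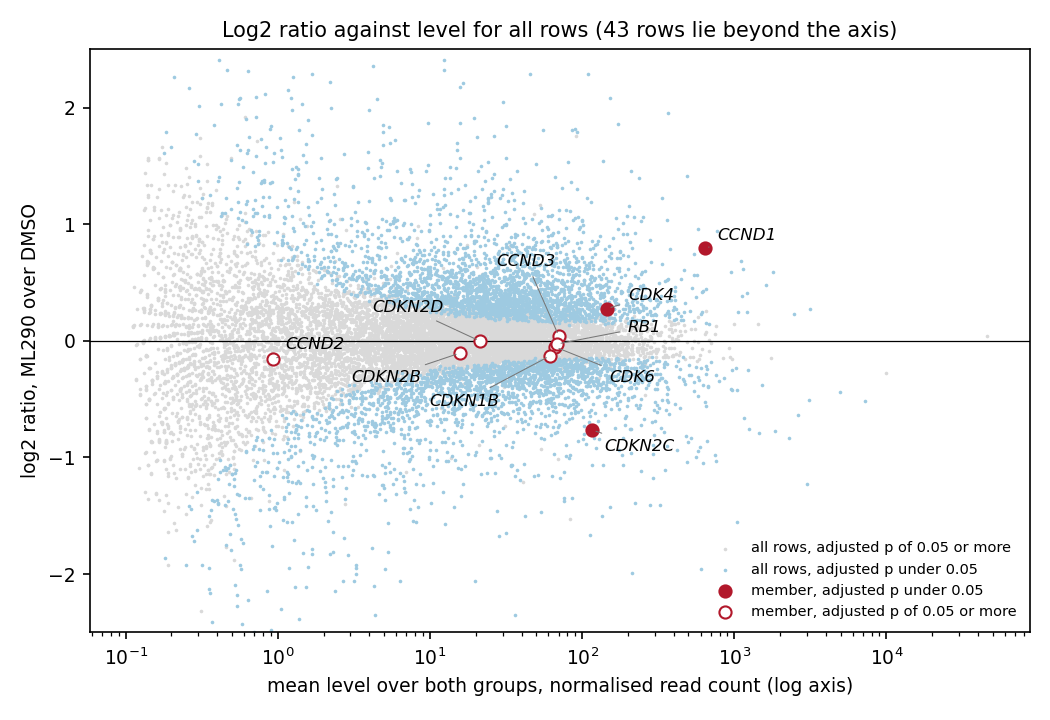
The log2 ratio of ML290 over DMSO against the mean level over both groups (log axis) for all rows, blue where the authors' adjusted p was under 0.05, with the 10 members as red circles, filled where called. CCND1 and CDK4 lie above 0 and CDKN2C below it, and 6 of the 7 open circles lie close to 0 at levels between 10 and 100.

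How readily a row was called depended on its level. Of the rows with a mean level of 10 to 100, 41.5% were called in the authors' deposited table, with a smallest called fold of 1.1, and 0 of the 6 members at that level were, at an unadjusted p under 0.05 as well. Of the rows with a level of 100 to 1000, 56.6% were called in the authors' deposited table, and so were 3 of 3 members. CCND2 is the only member under 1, where 9.34% of rows were called.

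Levels of different genes can be set side by side only per length, so each group mean was divided by the length in kilobases of the gene's main coding transcript in GENCODE 29. No test goes with these shares, which rest on group means. Per kilobase, CCND1 made up 84.6% of the D cyclin transcripts with ML290 and 76.4% with DMSO. CCND3 made up 15.4% with ML290 and 23.5% with DMSO, and CCND2 0.0607% with ML290 and 0.106% with DMSO. Of the kinase transcripts per kilobase, CDK4 held 93.2% with ML290 and 91.6% with DMSO. Among the 4 INK4 genes, CDKN2C held 16.8% per kilobase with ML290 and 24.4% with DMSO, and CDKN2A held 72.4% and 66.3%, the largest share in both groups. The order within each pool was the same in both groups.

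**Figure D3:**
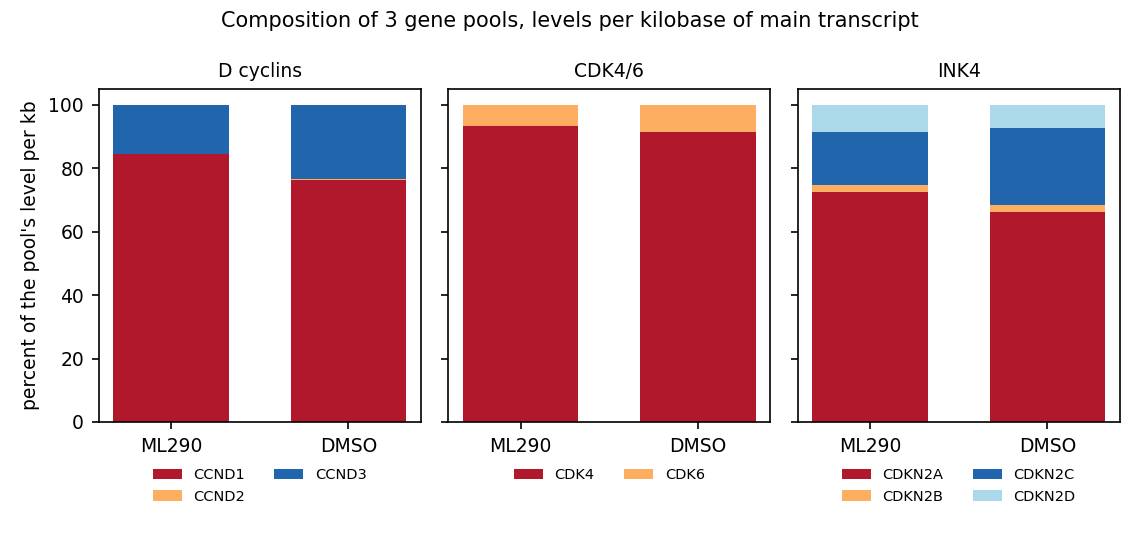
Composition of the D cyclin, CDK4/6 and INK4 transcripts, each as percent of the pool's summed level per kilobase of main transcript, with ML290 on the left and DMSO on the right of each panel. The CCND1 part is 84.6% with ML290 against 76.4% with DMSO, and the CDKN2C part 16.8% against 24.4%.

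The balance between the pools differed between the groups on the same per-kilobase scale. Summed D cyclins were 2.70 times the summed kinases with ML290 and 2.05 times with DMSO. Summed INK4 genes were 2.13 times the summed kinases with ML290 and 2.98 times with DMSO. CDKN2A made up 72.4% of this INK4 sum with ML290 and 66.3% with DMSO, and its value joins p16 and ARF. D cyclins over INK4 genes gave 1.26 with ML290 and 0.689 with DMSO. With the median coding transcript length in place of the main one, INK4 over kinases was 1.22 with ML290 and 1.71 with DMSO, and D cyclins over INK4 1.41 with ML290 and 0.753 with DMSO, so the level of these quotients depended on the length used while the order of the groups was the same.

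Transcription factors that act on the genes of this gate moved in both directions. Of 20 listed factors that are known to drive or repress G1 regulators, 8 were higher and 5 lower by the authors' deposited table, with a median log2 ratio of 0.11, beside 19.5% of all rows higher and 15.6% lower. The 5 lower factors were CTNNB1, EGR1, STAT3, FOXM1 and SMAD3. EGR1 had 74.7 with ML290 and 138.2 with DMSO in the authors' deposited table, a fall of 1.85-fold. STAT3 had 91.9 with ML290 and 115.3 with DMSO there, and FOXM1 had 207.5 and 260. SMAD3 had 113.3 with ML290 and 131.3 with DMSO. Whether any of the listed factors acts on CCND1 in these cells was not tested. Partners of the AP-1 complex, which is known to drive CCND1, were among the higher ones. FOSL1 was 1.90-fold higher (adjusted p = 7.02e-06), JUND 2.03-fold (adjusted p = 5.44e-06) and JUN 1.44-fold (adjusted p = 0.000234) by the authors' deposited table. Their partner FOS was low, at 2.09 with ML290 and 2.15 with DMSO in the authors' deposited table (adjusted p = 0.775). The factor KLF4 was 2.07-fold higher (adjusted p = 1.97e-07), and the β-catenin gene CTNNB1, another known driver of CCND1, was 1.31-fold lower (adjusted p = 3.09e-05) by the authors' deposited table. MYC, which binds E-boxes, had 78.2 with ML290 and 68.4 with DMSO per the authors' deposited table, a rise of 1.14-fold (adjusted p = 0.0288).

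Among 18 genes that govern the turnover of D cyclins and p27, 1 was higher and 4 were lower by the authors' deposited table, with a median log2 ratio of -0.04. The share called in either direction is near the background of 35.1% of all rows. By direction, 19.5% of all rows were higher and 15.6% lower, so the higher share of the list was below the background. SKP2, the F-box protein that marks p27 for degradation, had 51.7 with ML290 and 86.1 with DMSO per the authors' deposited table, a fall of 1.67-fold (adjusted p = 3.04e-06). Its cofactor CKS1B was 1.17-fold lower (adjusted p = 0.0213) and the related CKS2 1.24-fold lower (adjusted p = 0.00152) by the authors' deposited table. The kinase gene GSK3A, whose product and its relative can mark cyclin D1 for export and degradation, was 1.21-fold higher (adjusted p = 0.00888) by the authors' deposited table. Of the 3 subunits of the CDK-activating kinase, CDK7 was 1.27-fold higher (adjusted p = 0.00646), while CCNH stood at 19.0 with ML290 and 20.7 with DMSO (adjusted p = 0.317) and MNAT1 15.8 and 15.6 (adjusted p = 0.931) by the authors' deposited table.

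**Figure D4:**
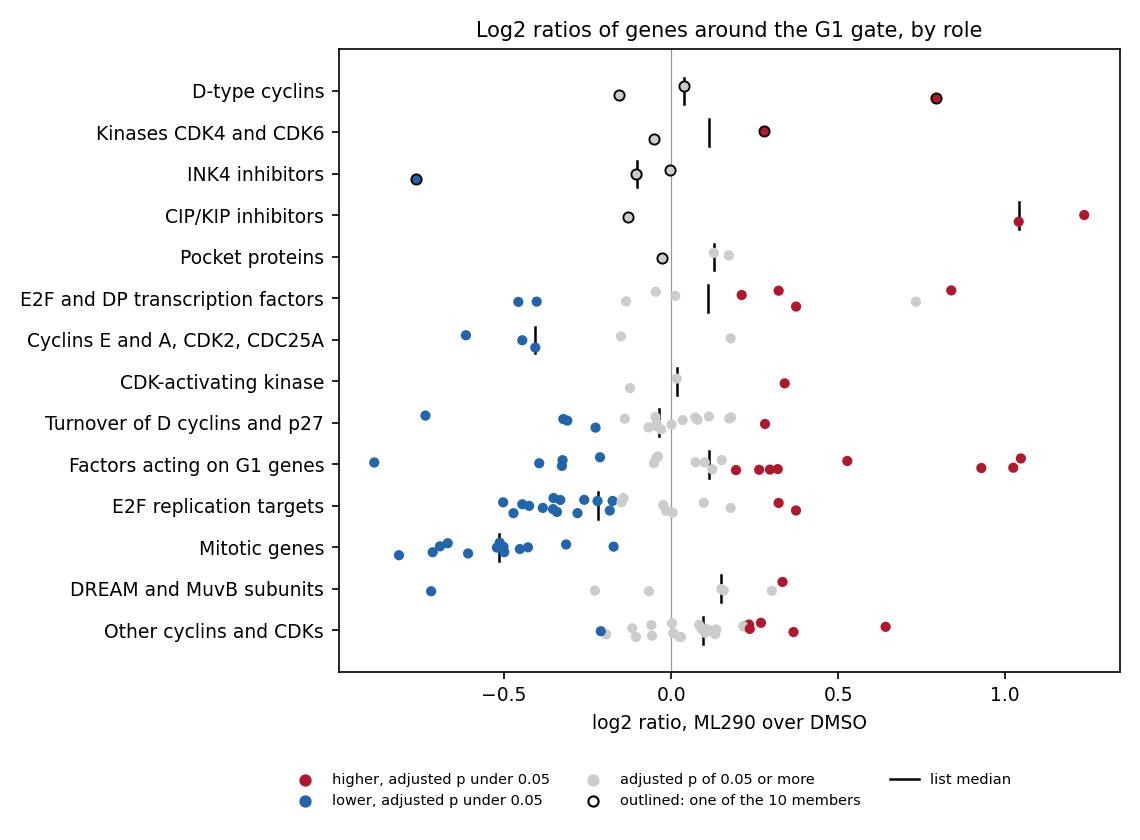
Log2 ratios of ML290 over DMSO for 14 lists of genes around the gate, 1 point a gene, red where called higher, grey where not called and blue where called lower, with a black bar at each list's median and the 10 members outlined. The mitotic genes lie wholly to the left, with a median of -0.52, and the E2F replication targets mostly so, with a median of -0.22, while the E2F and DP factors lie on both sides of 0.

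Downstream of RB1, the E2F factors split, and 14 of 23 replication targets were lower. Of 10 E2F and DP genes, 4 were higher and 2 lower by the authors' deposited table, with a median log2 ratio of 0.11, beside 19.5% of all rows higher and 15.6% lower. With a fold of at least 1.5 these counts became 1 and 0. The activator E2F1 had 218.1 with ML290 and 174.5 with DMSO per the authors' deposited table, a rise of 1.25-fold (adjusted p = 0.00622), and E2F2, an activator as well, was 1.37-fold lower (adjusted p = 0.00306). The repressors split too. E2F7 was 1.79-fold higher (adjusted p = 2.20e-07), E2F6 1.30-fold (adjusted p = 0.00971) and E2F4 1.16-fold (adjusted p = 0.045) by the authors' deposited table. E2F8 had 7.41 with ML290 and 9.80 with DMSO per the authors' deposited table, a fall of 1.32-fold (adjusted p = 0.0174). Of 23 E2F targets of DNA replication, 14 were lower and 2 higher by the authors' deposited table, with a median log2 ratio of -0.22, against the same shares of all rows. These changes were small, and with a fold of at least 1.5 the counts became 0 and 0. UHRF1, which keeps up DNA methylation at the fork, was 1.39-fold lower (adjusted p = 1.25e-05) and the thymidylate synthase TYMS 1.34-fold lower (adjusted p = 6.68e-05) by the authors' deposited table. GINS2 and MCM6, subunits of the replicative helicase, were 1.42-fold and 1.31-fold lower (adjusted p = 0.000141 and 0.000206) by the authors' deposited table. The 2 higher targets were E2F1 itself and the licensing factor CDT1, 1.30-fold higher (adjusted p = 0.00385) by the authors' deposited table.

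Of the next cyclins and their kinase, CCNA2, CCNE2 and CDK2 were lower and CCNE1 was not called. Of 5 listed genes among the E and A cyclins, CDK2 and CDC25A, 3 were lower and 0 higher by the authors' deposited table, with 3 at an unadjusted p under 0.05, beside 15.6% of all rows lower. CCNE1 and CCNE2 are also among the 23 replication targets, and CCNA1 and CDK3 were not listed. CCNA2, the cyclin of S phase and G2, had 71.1 with ML290 and 108.8 with DMSO per the authors' deposited table, a fall of 1.53-fold (adjusted p = 1.80e-06). CDK2 was 1.33-fold lower (adjusted p = 2.96e-05) and CCNE2 1.36-fold lower (adjusted p = 0.0194) by the authors' deposited table. CCNE1 stood at 5.47 with ML290 and 4.83 with DMSO (adjusted p = 0.233) and the phosphatase CDC25A 23.4 and 26 (adjusted p = 0.230) by the authors' deposited table.

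All 14 listed mitotic and proliferation genes were lower by the authors' deposited table, with a median log2 ratio of -0.52, beside 15.6% of all rows. The proliferation marker MKI67 had 346.6 with ML290 and 609.7 with DMSO per the authors' deposited table, a fall of 1.76-fold (adjusted p = 6.76e-08). The cyclin CCNB2 was 1.62-fold lower (adjusted p = 1.45e-06), the kinase PLK1 1.52-fold (adjusted p = 5.63e-06) and the survivin gene BIRC5 1.42-fold (adjusted p = 4.77e-06) by the authors' deposited table. MYBL2, which joins the MuvB core to switch on mitotic genes, was 1.65-fold lower (adjusted p = 8.15e-06) by the authors' deposited table. Among the other DREAM and MuvB genes, LIN52 was 1.26-fold higher (adjusted p = 0.0253), and LIN37 stood at 9.23 with ML290 and 7.49 with DMSO (adjusted p = 0.0524) and DYRK1A 46.6 and 42.0 (adjusted p = 0.117) by the authors' deposited table.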

How the data were processed

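RNA of 8 LX-2 samples was sequenced, 4 for each group. GRCh38, STAR and Partek are named per the submitters' processing notes, without versions or roles. How reads were annotated, counted, filtered, normalised and tested is not given in the sources used here, nor is strand. Per the file headers, the authors deposited least-squares group means, treated here as a signal in normalised reads, with a ratio of ML290 over DMSO, a signed fold score, a p-value and a step-up adjusted p-value. The deposited total equals 4 times the sum of both means in all 14870 rows, within 0.01%. Recomputing the adjusted p by the Benjamini-Hochberg method gave the deposited value within 0.1% in every row under 2 assumptions. These were 14872 tests in all, and smaller p-values for the 2 tests without a row than for any row. What these 2 tests were is not known, and they are not analysed here.

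From the deposited table were computed log2 ratios, calls at an adjusted p of 0.05, counts and medians per list, and levels per kilobase (the longest principal coding transcript of GENCODE 29). Because the table holds no values per sample, no test was run anew. The spacing of reads was fitted to summed values under 1.6. Of 1083 low values with ML290, 80.5% came within 0.15 of a whole read, and of 1029 with DMSO 93.4%, measured on the values used for the fit. Genes of different length shared 1 spacing. Adjustment and spacing functions were tested on simulated data.

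Members and lists were chosen with earlier results of these data known. Named are all members, up to 4 genes with the smallest adjusted p in each list, and genes fixed for their role (CDKN1A, CDKN1C, CDKN2A, RBL1, RBL2, E2F1, E2F2, CCNE1, CCNE2, CDK2, SKP2, MYC, MKI67, CDC25A). Named with their values already known were JUN, FOS, CDT1, COL1A1, CD68, SOX9, KRT7, CD14, CSF1R, E2F4, E2F8 and the genes that overlap members. The same holds for VIM, DCN, RXFP1, EGR1, FOXM1, STAT3 and SMAD3. Alternatives covered the threshold, a fold minimum, the adjustment, level filters, a pseudocount, centring and transcript length. Python 3.11.15, numpy 2.4.6, pandas 2.3.3 and matplotlib 3.10.9 were used. The series text calls the samples biological replicates and does not say whether they were separate cultures, so p-values measure the spread between these samples.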

Additional observations from a re-analysis of the deposited data

How the results depend on the processing

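Only centring could reverse a direction, because the other alternatives leave the sign of the ratio as it is. The 10 members kept their direction under both centrings. CCND1 and CDKN2C kept their call under every alternative that could be computed for them. CCND2 has no value under the level filters. Members called higher numbered 1 in place of 2 with a minimum fold of 1.5 and with Bonferroni adjustment, CDK4 being lost by construction of the stricter rule. Of all rows, 1922 higher and 1491 lower were called under an adjusted p of 0.01, 894 and 710 with a fold of at least 1.5, 1617 and 1217 with Benjamini-Yekutieli adjustment, and 540 and 334 with Bonferroni adjustment, against 2901 and 2325. Of the 126 listed pathway genes that are no members, 24 were higher and 43 lower. This became 17 and 32 under an adjusted p of 0.01 and 7 and 9 with a fold of at least 1.5. It became 11 and 30 with Benjamini-Yekutieli adjustment, and 5 and 13 with Bonferroni adjustment. An unadjusted threshold was added after the data were seen and called the same 3 members. With the median coding transcript length, CCND1 made up 88.9% of the D cyclins with ML290 and 82.6% with DMSO, CDK4 95.4% and 94.3% of the kinases, and CDKN2C 15.5% and 22.7% of the INK4 genes. Centring reversed the sign of the log2 ratio of MNAT1, which was not called, to -0.0024 (median of all rows) and -0.0123 (median at a level of at least 10). No paired analysis was possible because the table holds group means and no values per sample, which also barred leaving out a replicate. Depth limits CCND2 most among the members, and also CDKN1C and E2F5 (about 50.6 reads over the ML290 libraries and 33.4 over the DMSO libraries for E2F5).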

Other observations

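Of 24 cyclins and CDKs with other tasks, mostly in transcription and splicing, 6 were higher and 1 lower by the authors' deposited table, with a median log2 ratio of 0.10, beside 19.5% of all rows higher and 15.6% lower. The share called is near the background of 35.1%. CDK18 was 1.56-fold higher (adjusted p = 0.00156) and CDK17 1.29-fold higher (adjusted p = 0.00164) by the authors' deposited table. The transcription cyclins CCNL2 and CCNK were 1.18-fold and 1.16-fold higher (adjusted p = 0.0169 and 0.0192) by the authors' deposited table. CDK11A and CDK11B are near-identical copies whose reads the counting could split, so their values are uncertain. The phosphatase gene CDKN3, chosen after its value was seen because its symbol resembles the inhibitors, had 20.0 with ML290 and 26.9 with DMSO per the authors' deposited table, a fall of 1.34-fold (adjusted p = 0.00048).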
